A study of Danio rerio with 36 samples.

Results

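Forkhead (Fox) genes were followed through 3 stages of zebrafish development with and without the fuel additive methyl tert-butyl ether (MTBE). Members were all probe sets that the platform annotation paired with exactly 1 symbol made of fox, a letter and a digit. This rule found 30 probe sets for 24 genes among 8793 named genes and 15502 probe sets, and each gene was represented by its probe set with the highest mean over all arrays. The symbol foxa, which has no digit, was left out by the rule. RefSeq gave the same current symbol for all 24 members.

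Forkhead factors bind DNA through a conserved winged-helix domain. Some of them, the FoxA proteins above all, can open closed chromatin for other regulators. In the vertebrate embryo the family divides the work of building germ layers. FoxH1 carries Nodal signals to the genome, FoxA factors act in endoderm and midline, FoxC in somites and head mesenchyme, FoxD3 in neural crest, and FoxB1, FoxN4 and FoxP in the nervous system. FoxM1 drives genes of mitosis, and FoxO factors are held out of the nucleus by insulin signalling.

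All embryos were of the Tg(fli1a:EGFP)y1 line, which carries green fluorescent protein under the fli1a promoter in its blood vessels, and all were kept in sealed glass vials from about 3 hours post fertilization (hpf). They received MTBE at 0.00625, 0.625 or 5 mM, or embryo medium alone as control. Pools of 15 whole embryos were collected at about 15 hpf (the stage called 6-somites), 24 hpf (21-somites) and 30 hpf (Prim-5). With 3 pools for each of 12 groups, 36 one-colour Affymetrix arrays were deposited as log2 values, in which a difference of 1 is a doubling. The number of arrays limits the precision, since arrays have no read depth. In whole embryos, fewer cells of a type and less RNA per cell cannot be told apart.

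Of the 24 members, 15 lay above the brighter of 2 red fluorescent protein control probe sets in every group, which had mean log2 levels of 2.18 and 2.98 and detect genes the line is not described as carrying. The probe set of foxl1, known in mice as a gene of gut mesenchyme, lay under the lower of them in all 12 groups. That of foxb1b did so in 11 groups, foxh1 in 5 and foxd5 in 4. The members foxd2 and foxo3a lay between the 2 control probe sets in every group, and foxa1 did so in 11 groups. The group means of foxd5 and foxh1 were under the brighter control probe set in 8 groups each, all those of 21-somites and Prim-5. The group mean of foxi1 was under it in 1 group, at Prim-5. Values of these members are not shown to lie above background there, and log2 differences that rest on such groups are not exact. Across all probe sets, correlations of same-group arrays ran from 0.984 to 0.9958. Control replicate 1 was low in yolk transcripts at 2 stages. Its mean over 9 yolk genes at 6-somites was 5.23, where replicates 2 and 3 had 5.98 and 5.96, and at 21-somites it was 5.57, where they had 7.32 and 7.29. The mean of 5 fast muscle genes rose from 2.85 through 7.32 to 9.27 in controls, in the order of the labelled stages. Values without the 2 yolk-poor arrays, called the yolk-poor controls, are given where they change a call of a member.

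The first comparison asked how forkhead genes changed between stages in undisturbed embryos. From 6-somites to 21-somites, 8 members fell in controls. These were foxd5 of the early neural plate and tailbud, the Nodal effector foxh1, the midline and endoderm genes foxa2 and foxa3, the somite gene foxc1a, the ear and pharynx gene foxi1, and the broadly expressed foxk2a and foxk2b. With limma, 8 of 24 members changed at an adjusted p under 0.05 (33.3%), where 22.6% of all probe sets changed. All 8 were lower at 21-somites, against a background of 10.9% lower. No member was higher, where 11.7% of all probe sets were. The median difference was -0.024 over the members and -0.015 over all probe sets.

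The fall of foxd5 was the largest among the members. Its control arrays had log2 levels of 3.57, 3.80 and 3.32 at 6-somites and of 2.09, 2.57 and 2.52 at 21-somites. The stages did not overlap, and the log2 difference was -1.17 ± 0.16 (SE, adjusted p = 4.41e-07). The value is not exact, because foxd5 at 21-somites was not shown to lie above background. Nodal signalling, in which foxh1 acts beside Smad2, patterns the mesendoderm of the gastrula. Levels of foxh1 were 3.12, 2.92 and 3.14 at 6-somites and 2.22, 2.43 and 2.51 at 21-somites, again without overlap. Its log2 difference was -0.67 ± 0.16 (SE, adjusted p = 0.00199), with the same limit at 21-somites. The second probe set of foxh1 gave -0.74. Its control mean lay under the brighter control probe set at 6-somites (2.74) and under the lower one at 21-somites (2.00). This value is not exact either.

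The FoxA genes open chromatin in endoderm, and foxa2 is also a gene of the floor plate. Control levels of foxa2 were 3.96, 3.76 and 3.51 at 6-somites and 3.13, 3.25 and 3.32 at 21-somites, with every later array below every earlier one. Its log2 difference was -0.51 ± 0.15 (SE, adjusted p = 0.00901). Levels of foxa3 were 4.91, 5.15 and 5.08, then 4.33, 4.91 and 4.45, so that 1 later array reached the range of the earlier stage. Its difference was -0.48 ± 0.15 (SE, adjusted p = 0.0173). The third member, foxa1, was at 2.38, 2.45 and 2.80 and then at 2.32, 2.76 and 2.74, which overlap, and its difference of 0.063 ± 0.13 (SE) did not pass the test.

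Among the genes of mesoderm, foxc1a is needed to form somites. It lay at 5.67, 5.24 and 5.63 at 6-somites and at 5.21, 5.18 and 4.96 at 21-somites, a difference of -0.39 ± 0.15 (SE, adjusted p = 0.0457) without overlap. The gene foxi1, which acts in the ear placode and pharyngeal pouches, lay at 3.71, 3.33 and 3.88 and then at 3.17, 3.33 and 3.14. Its stages touched, and the difference was -0.43 ± 0.14 (SE, adjusted p = 0.0244). Both FoxK2 paralogs fell without overlap. Levels of foxk2a went from 5.23, 5.29 and 5.07 to 4.87, 4.84 and 4.64, a difference of -0.42 ± 0.13 (SE, adjusted p = 0.0218). Levels of foxk2b went from 6.66, 6.59 and 6.43 to 6.36, 6.04 and 6.28, a difference of -0.33 ± 0.11 (SE, adjusted p = 0.022).

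In all, the control arrays of 6 members (25%) were lower at 21-somites with no overlap, where 15.9% of all probe sets were. Without the yolk-poor controls all 8 members were still lower, but only foxd5 at -1.02 (adjusted p = 0.000102) and foxh1 at -0.56 (adjusted p = 0.0456) passed the test, so that the count fell to 2. The other 6 lay between -0.35 and -0.44 with adjusted p from 0.061 to 0.175. The count fell to 3 without 6-somites control replicate 1 alone, and to 5 without 6-somites control replicate 3 or without 21-somites control replicate 1 or 3.

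**Figure D1:**
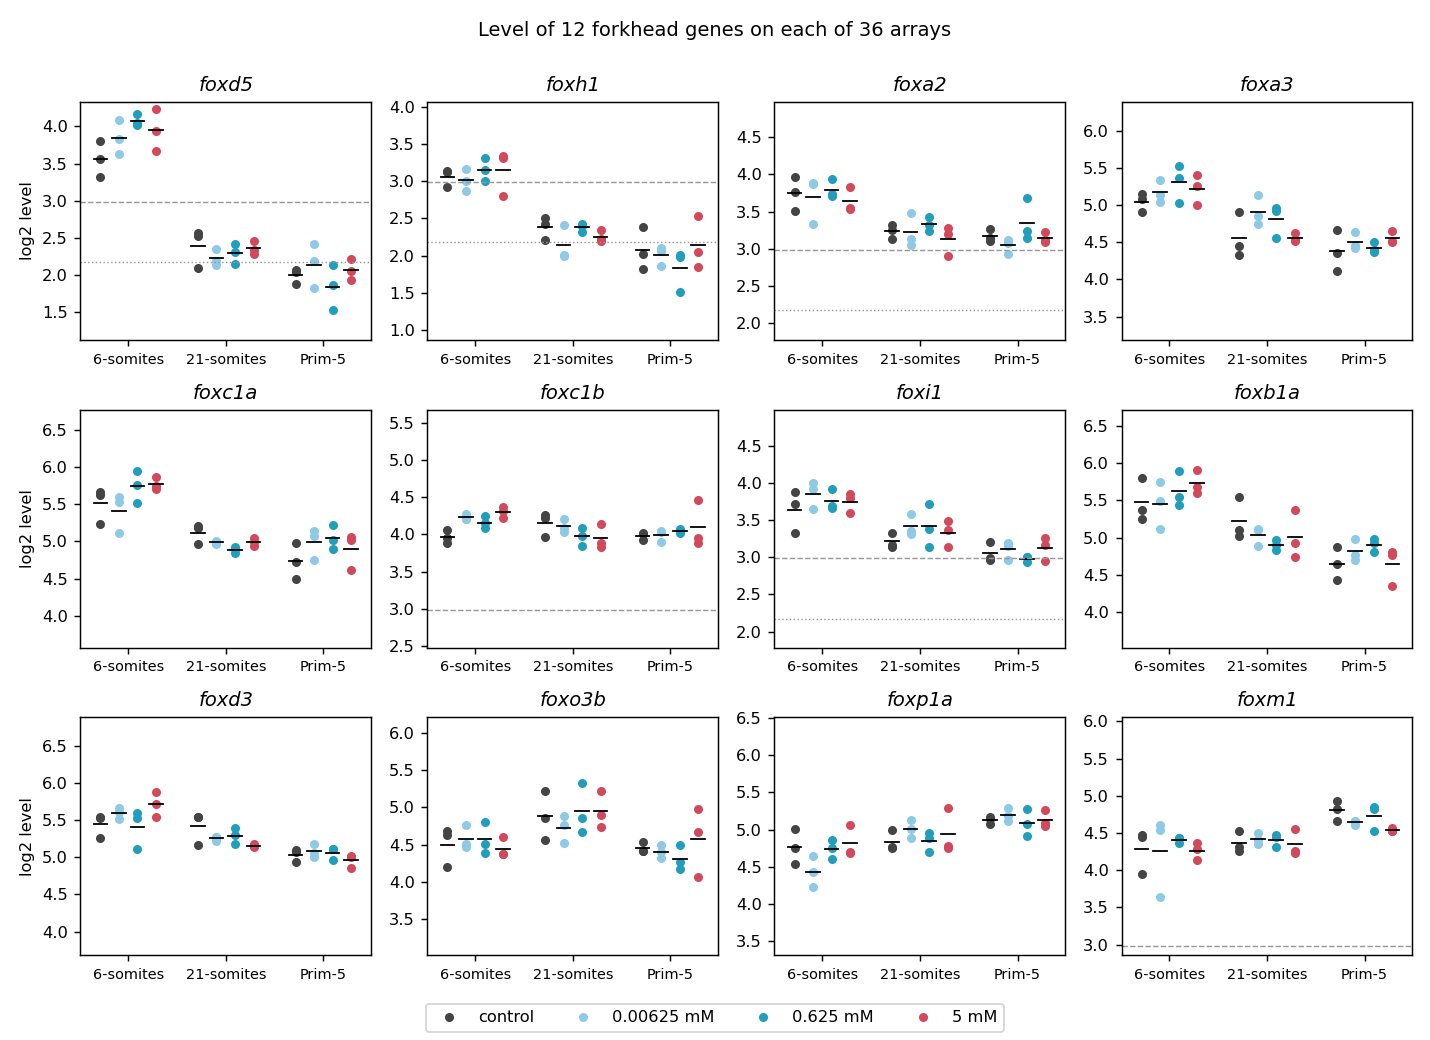
Log2 level of 12 forkhead genes on each of the 36 arrays, by stage and, in colour, by MTBE dose, with a black line at the mean of each group of 3 arrays. All panels span the same number of log2 units, and grey lines mark the means of the 2 red fluorescent control probe sets, 2.18 (dotted) and 2.98 (dashed), where they fall in the panel. Levels of foxd5 and foxh1 drop after 6-somites in every dose group, foxc1a drops more than foxc1b, and foxo3b is highest at 21-somites.

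The same stage comparison was made within each dose group, where it rests on other arrays. In embryos at 0.00625 mM, 7 members changed, 1 higher and 6 lower, against 24.5% of all probe sets, 11.2% higher and 13.3% lower. At 0.625 mM, 8 members changed, 1 higher and 7 lower, against 21.2%, with 10.8% higher and 10.4% lower. At 5 mM, 11 members changed, 1 higher and 10 lower, against 27.7%, with 12.6% higher and 15.1% lower. The 4 genes foxa2, foxc1a, foxd5 and foxh1 were lower past the threshold in controls and in all 3 doses. This is 16.7% of the members, where 4.27% of all probe sets were lower in all 4. Differences of foxd5 were -1.62, -1.77 and -1.58 with rising dose, those of foxh1 -0.88, -0.78 and -0.90, those of foxc1a -0.43, -0.86 and -0.78, and those of foxa2 -0.47, -0.46 and -0.51. The genes that rose were foxp1a at 0.00625 mM (0.58 ± 0.14, SE), foxj3 at 0.625 mM (0.56 ± 0.18, SE) and foxo3b at 5 mM (0.51 ± 0.18, SE). Leaving out 1 array took the count at 0.00625 mM to 3 (6-somites replicate 2 or 21-somites replicate 1) or 4 (21-somites replicate 2 or 3). It took the count at 0.625 mM to 5 (6-somites replicate 1 or 21-somites replicate 3), and that at 5 mM to 7 (21-somites replicate 2). The single rises did not recur past the threshold in a second dose group. The neural crest gene foxd3 fell at 0.00625 mM (-0.34) and at 5 mM (-0.55), and the neural tube gene foxb1a at 0.625 mM and 5 mM (-0.72 in both).

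No member passed the test of whether its stage changes differed between the 4 doses. In limma's F test of the 6 stage-by-dose terms, which was added after the data were seen, 0 of 24 members and 0% of all probe sets passed. At an unadjusted p under 0.05 it called 1 member, foxk2b, and 6.67% of all probe sets. The missed test does not show that stage changes were alike at all doses. The stage changes were also estimated as means over the 4 doses, with 12 arrays a stage, and such a mean can hide unequal changes. The median standard error of a member's difference was 0.0723 for these means and 0.145 for a single group.

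Over the 4 doses, 13 of 24 members (54.2%) changed from 6-somites to 21-somites, 2 higher and 11 lower, where 52.8% of all probe sets changed. The members' share of change was thus near the background, and their direction was mostly down, with 45.8% lower against 31.2% of all probe sets and 8.33% higher against 21.5%. The 8 members called in controls were all among the 11. The other 3 were foxb1a at -0.53 ± 0.09, foxd3 at -0.26 ± 0.06 and foxb1b at -0.16 ± 0.07 (SE), of which foxb1b was not shown to lie above background. The 2 higher genes were the nervous system gene foxp1a at 0.22 ± 0.07 and foxo3b at 0.35 ± 0.09 (SE).

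The 12 arrays of foxd5 ran from 3.32 to 4.24 at 6-somites with a median of 3.88, and from 2.09 to 2.57 at 21-somites with a median of 2.32. At Prim-5 they ran from 1.53 to 2.42 with a median of 2.05, and the mean of each Prim-5 group lay under the lower control probe set. At both later stages the gene was not shown to lie above background, and its fall from 6-somites to Prim-5 of -1.84 ± 0.08 (SE) is not exact. Arrays of foxh1 followed the same course, with medians of 3.13, 2.33 and 2.02 and a fall of -1.08 ± 0.08 (SE), which is not exact either. These were the 2 members whose 12 arrays at 21-somites were all below the 12 at 6-somites, which held for 3.6% of all probe sets.

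From 21-somites to Prim-5 fewer members changed in each group. In controls, foxb1a and foxd3 fell, and no other member passed. These 2 members compare with 7.04% of all probe sets changed and 2.7% lower. Levels of foxb1a, a gene of the neural tube and hypothalamus, were 5.55, 5.10 and 5.02 at 21-somites and 4.65, 4.87 and 4.43 at Prim-5. The stages did not overlap, and the difference was -0.57 ± 0.17 (SE, adjusted p = 0.0319). Levels of foxd3, which specifies neural crest, were 5.54, 5.16 and 5.54 and then 5.07, 5.09 and 4.93, a difference of -0.39 ± 0.12 (SE, adjusted p = 0.0426), again without overlap. Without the yolk-poor control at 21-somites the differences were -0.41 (adjusted p = 0.229) and -0.32 (adjusted p = 0.194), and the count of members called was 0. Leaving out Prim-5 control replicate 1 or 3 also took both calls away, and leaving out 21-somites control replicate 3 or Prim-5 control replicate 2 left 1.

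In the dose groups 0 members changed over this interval at 0.00625 mM, against 7.24% of all probe sets, and 2 had an unadjusted p under 0.05, against 18.8%. At 0.625 mM, foxh1 (-0.55), foxi1 (-0.44) and foxo3b (-0.64) fell, where 11.3% of all probe sets changed and 5.45% were lower. The means of foxh1, 2.38 and 1.83, lay under the brighter control probe set at both stages, and that of foxi1 did so at Prim-5. The values of foxh1 and foxi1 are thus not exact. The second probe sets of foxh1 (-0.11, adjusted p = 0.689) and foxo3b (-0.34, adjusted p = 0.224) did not pass limma's test here. Each lay under the brighter control probe set at Prim-5. The count of 3 became 0 without Prim-5 replicate 1, and 1 without 21-somites replicate 1 or Prim-5 replicate 2. At 5 mM, 0 members passed limma's test, against 9.32%, and 4 had an unadjusted p under 0.05, against 20.4%. As a mean over the 4 doses, 10 members changed (41.7%), 3 higher and 7 lower, where 30.4% of all probe sets changed, 13.6% higher and 16.8% lower. The 7 lower genes were foxa3, foxb1a, foxd3, foxd5, foxh1, foxi1 and foxo3b, with differences from -0.25 to -0.44. Of these, foxd5 and foxh1 were not shown to lie above background at either stage, so their values are not exact. The second probe set of foxh1 gave -0.17 and did not pass (adjusted p = 0.0692, limma). It lay under the lower control probe set at both stages. The 3 higher genes were foxj3 at 0.34 ± 0.09, foxm1 at 0.29 ± 0.08 and foxp1a at 0.23 ± 0.07 (SE).

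**Figure D2:**
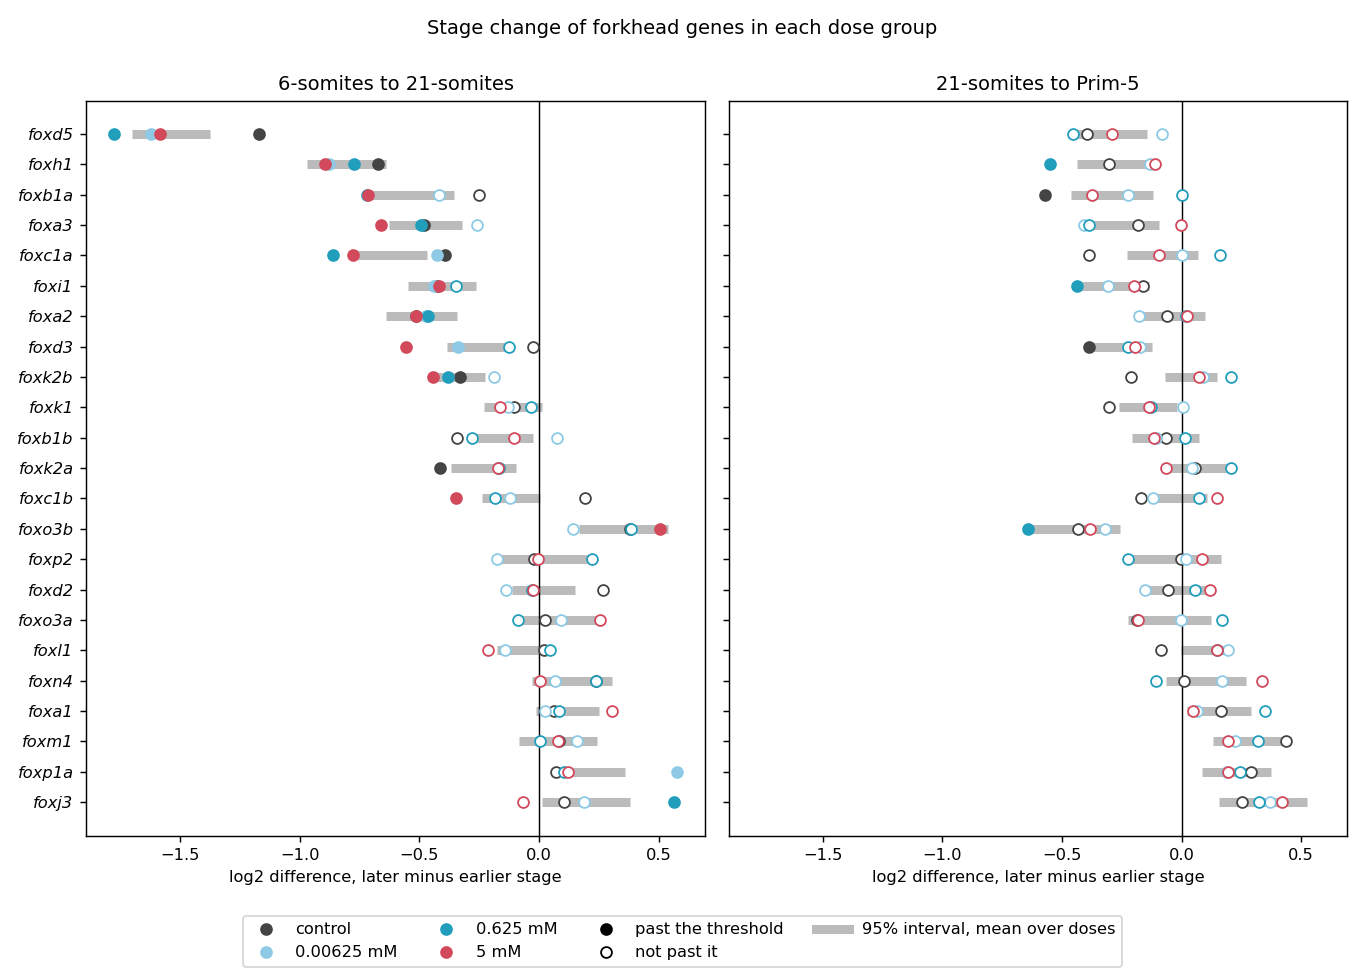
Log2 difference between successive stages for the forkhead genes reported here, in controls and in each MTBE dose group (coloured points, filled where the adjusted p is under 0.05). Grey bars are 95% intervals of the mean over the 4 doses, and genes are ordered by their change from 6-somites to Prim-5. The genes at the top, led by foxd5, lie left of 0 in the first interval, and foxo3b lies right of 0 in the first interval and left of 0 in the second.

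The gene foxo3b encodes a FoxO factor, a class that insulin signalling restrains. It was the only member called higher in one interval and lower in the other as a mean over doses. Its 12 arrays ran from 4.1995 to 4.81 with a median of 4.51 at 6-somites, from 4.53 to 5.33 with a median of 4.86 at 21-somites, and from 4.07 to 4.98 with a median of 4.41 at Prim-5. Neighbouring stages overlapped. The mean over doses rose by 0.35 (adjusted p = 0.00144) and then changed by -0.44 (adjusted p = 0.000233), which left -0.089 ± 0.091 (SE) over the whole span. The second probe set of foxo3b gave 0.42 and -0.33, both past the threshold. Its means over doses at 6-somites (2.83) and Prim-5 (2.92) lay under the brighter control probe set, so these values are not exact. In controls alone, where the differences of the first probe set were 0.38 and -0.43, neither passed. Its paralog foxo3a lay between the 2 control probe sets at every stage, and its differences over the doses were 0.070 and -0.050.

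Over the whole span from 6-somites to Prim-5, 19 of 24 members changed as a mean over doses (79.2%), 13 lower and 6 higher. Of all probe sets, 66.9% changed, 41.5% lower and 25.4% higher. After foxd5 and foxh1, the largest falls were those of foxb1a (-0.82), foxa3 (-0.72), foxc1a (-0.69), foxi1 (-0.68) and foxa2 (-0.54). Among the genes that rose were foxj3 (0.54), foxp1a (0.45), foxm1 (0.37), foxa1 (0.27) and foxn4 (0.24). Of these, foxa1 was close to background. The gene foxn4 acts in retinal progenitors and spinal interneurons. Of its 2 other probe sets, 1 rose by 0.45, and the other, at 0.14, did not pass the test. Both had means under the brighter control probe set at 6-somites and at Prim-5, so these values are not exact. The members foxd2, foxl1, foxo3a, foxo3b and foxp2, a gene of the nervous system, did not pass over the span.

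The mitotic regulator foxm1 had 12 arrays from 3.63 to 4.61 at 6-somites, 4.23 to 4.55 at 21-somites and 4.52 to 4.93 at Prim-5. Medians were 4.40, 4.38 and 4.66, so the rise came late. In controls its arrays were at 4.53, 4.26 and 4.32 and then at 4.93, 4.82 and 4.66, which do not overlap. The control difference of 0.43 ± 0.16 (SE, adjusted p = 0.101) did not pass alone. The gene foxp1a rose in small steps, with medians of 4.69, 4.89 and 5.12. It was called at 0.00625 mM in the first interval and in no single group in the second. The medians of foxj3 were 3.47, 3.66 and 4.04.

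Paralogs, here gene pairs whose symbols end in a and b, did not always move alike. Levels of foxc1a over 12 arrays had medians of 5.65, 4.98 and 5.00 at the 3 stages. Those of foxc1b had medians of 4.21, 4.06 and 4.02. In controls alone the means of foxc1a were 5.51, 5.12 and 4.73, lower again at Prim-5, although that second fall did not pass the test. Without the yolk-poor control it was -0.34 (adjusted p = 0.263, limma). With rising dose, exposed means of foxc1a were 4.99, 4.89 and 4.99 at 21-somites and 4.99, 5.05 and 4.90 at Prim-5. From 6-somites to 21-somites the mean over doses was -0.61 ± 0.07 for foxc1a and -0.12 ± 0.06 (SE) for foxc1b, which did not pass. Over the whole span to Prim-5, foxc1b was among the members called lower, with stage means of 4.16 at 6-somites and 4.03 at Prim-5. In controls foxc1b was at 4.06, 3.88 and 3.95 and then at 3.96, 4.23 and 4.27, a difference of 0.19 ± 0.12 (SE). At 5 mM foxc1b fell without overlap, from 4.31, 4.37 and 4.22 at 6-somites to values with a mean of 3.95 at 21-somites, a difference of -0.35 ± 0.12 (SE, adjusted p = 0.0281). Within the same arrays, the log2 change of foxc1a minus that of foxc1b was -0.50. An exact two-sided permutation test of the stage labels within each dose gave p = 5e-05 (adjusted p = 0.0002 over 4 tests). From 21-somites to Prim-5 the gap changed by -0.063 (adjusted p = 0.657). A ratio within an array shows unequal change and does not show that foxc1b was steady.

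Both FoxK2 genes fell after 6-somites, with differences of -0.23 ± 0.07 for foxk2a and -0.34 ± 0.05 for foxk2b (SE) as means over doses. Their gap changed by 0.105 in this interval (adjusted p = 0.374, exact permutation test) and by 0.020 in the next (adjusted p = 0.831). With 50 added on the linear scale, the first of these was 0.12 with an adjusted p of 0.00442. In controls the differences from 21-somites to Prim-5 were 0.054 ± 0.13 for foxk2a and -0.21 ± 0.11 (SE) for foxk2b, neither past the threshold. These tests of 2 pairs over 2 intervals were added after the data were seen. The pairs foxb1a with foxb1b and foxo3a with foxo3b were not tested this way, because foxb1b and foxo3a were not shown to lie above background.

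Genes of the pathways in which forkhead factors work were followed in controls, with 138 of 194 listed genes measured. The control arrays include the yolk-poor controls, without which fewer members were called in the first interval. Values without those arrays are not given for the pathway genes. Shares of all probe sets in controls, 11.7% higher and 10.9% lower in the first interval, stand as background to the counts. In the second interval these shares were 4.33% higher and 2.7% lower. Counts are those of controls unless a dose is named, and shares for the dose groups in the first interval are given above. The median difference of the lists ran from -0.30, for the cell cycle, to 0.39, for the somite list, where that of all probe sets was -0.015. The Hedgehog list had 0.22, the neural crest list 0.081, the Nodal list -0.18 and the endoderm list -0.18. With rising dose, the exposed groups had medians of -0.44, -0.39 and -0.56 for the endoderm list. Those of the somite list were 0.11, 0.35 and 0.089, and those of all probe sets -0.074, -0.047 and -0.081. Beside foxh1, the Nodal list had 2 of 13 genes higher and 3 lower from 6-somites to 21-somites. The organizer gene gsc fell (-1.90 ± 0.18), as did the Nodal antagonist lft1 (-0.92 ± 0.17), and the co-receptor gene tdgf1 rose (0.68 ± 0.14, SE). From 21-somites to Prim-5, 2 genes of this list were lower, tdgf1 (-0.91) and lft1 (-0.77). The direction of tdgf1 thus turned, while that of lft1 and foxh1 was down in both intervals, although foxh1 did not pass in the second.

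Beside foxa2 and foxa3, the endoderm list had 3 of 10 genes lower and 0 higher in the first interval, gata4 (-1.12), gata5 (-1.14) and gata6 (-0.62), all of which also act in the heart. None of that list passed in the second interval. In the dose groups the endoderm list had 1 higher and 6 lower in the first interval at 0.00625 mM, 1 and 5 at 0.625 mM, and 1 and 6 at 5 mM. Of 15 Hedgehog and floor plate genes, 4 were higher and 1 lower in controls in the first interval. The midline ligand genes shhb (-0.80) and ihhb (0.55) and the axon guidance gene ntn1a (0.62) had the smallest p. Of these, ihhb lay under the lower control probe set at 6-somites and Prim-5, and it alone was lower (-0.56) in the second. In the dose groups this list had 0 higher and 2 lower at 0.00625 mM, 2 and 1 at 0.625 mM, and 1 and 2 at 5 mM, so its balance was not that of the controls in every group.

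Beside foxc1a, the somite and head mesenchyme list had 4 of 10 genes higher and 3 lower in the first interval. The presomitic genes mespba (-1.43) and tbx6 (-1.25) fell with foxc1a, and the head mesenchyme gene twist1a (0.72) rose. In the second interval 1 rose and 2 fell, with prrx1b at 1.03, tbx6 at -1.07 and tcf15 at -0.59. Beside foxd3, the neural crest list had 4 of 15 genes higher and 1 lower in the first interval, among them crestin (1.49), sox9b (-0.80) and sox9a (0.73). In the dose groups the counts were 1 higher and 2 lower at 0.00625 mM and 2 and 2 at both higher doses. In the second, the pigment cell gene mitfa rose (0.72) and snai1b fell (-0.52). The control arrays of foxd3 itself overlapped in the first interval and fell in the second.

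The list named for the telencephalon holds genes of the forebrain more widely. Of its 17 measured genes, 6 were higher and 4 lower in the first interval. First by p were rx3 (-2.10), otx2b (-1.13) and tbr1b (1.33), and tbr1b alone rose further (1.03) in the second. Of 18 cell cycle genes, 0 were higher and 8 lower in the first interval, led by ccnb2 (-0.65), cenpe (-0.43) and cdc20 (-0.44), and none passed in the second. Over the same intervals foxm1 changed by 0.082 and 0.43 in controls, neither past the threshold. Of 20 FoxO response genes, 1 was higher and 3 lower in the first interval. First by p were trim63a (3.87), a muscle gene, which rose, and among the lower ones sod2 (-1.07) and fbxo32 (-0.91). In the second, trim63a (1.24) and insra (0.42) rose and insrb (-0.49) fell. For fbxo32, trim63a and tbr1b at least 1 control stage lay under the lower control probe set, so their values are not exact.

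Genes of 2 further lists belong to forkhead factors outside the 24 members. Of 11 cilia genes around FoxJ1, rsph9 rose (0.56) and ift57 fell (-0.56) in the first interval, and 0 passed in the second. Of 9 ionocyte genes around FoxI3, ca2 (1.32) and atp1b1b (1.22) rose and dlc (-0.67) fell in the first, and atp1a1a.2 (2.14, from a level under the lower control probe set), ca2 (0.91) and atp1b1b (0.87) rose in the second.

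**Figure D3:**
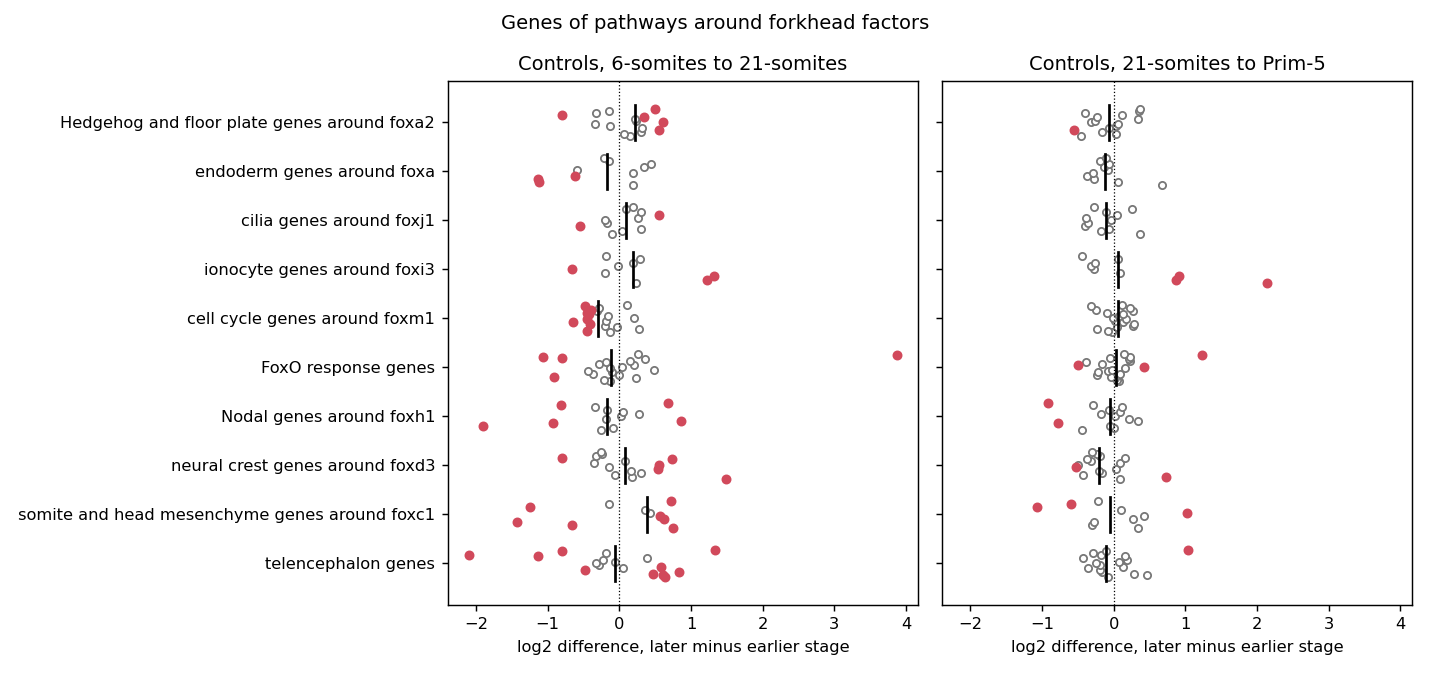
Log2 difference between successive stages in controls for each measured gene of 10 pathway lists around forkhead factors. Red points passed the threshold, open points did not, and black bars are list medians. Cell cycle genes that passed lie left of 0 in the first interval, and most lists hold genes on both sides of 0.

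The second comparison asked whether MTBE changed forkhead genes. The study describes 0.625 mM as a dose with no observed adverse effect and 5 mM as one that causes vascular lesions. No member passed the test at any dose and stage. Few probe sets did so anywhere on the array. All doses of a stage share its 3 control arrays, so the 3 comparisons of a stage are not independent. At 6-somites, 0 of 24 members passed at 0.00625 mM (0.29% of all probe sets), at 0.625 mM (0.0129%) and at 5 mM (0%). At 21-somites 0 members and 0% of all probe sets passed at each dose. At Prim-5, 0 members passed at 0.00625 mM (0%), 0.625 mM (0%) and 5 mM (0.00645%).

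Counts at an unadjusted p under 0.05 ran from 0 to 4 of 24 members. At 6-somites limma gave 4, 1 and 3 members with rising dose, against 13.8%, 6.88% and 8.61% of all probe sets. At 21-somites it gave 1, 0 and 1, against 5.5%, 5.93% and 7.5%. At Prim-5 it gave 2, 2 and 0, against 2.02%, 3.45% and 3.73%. The median difference over the members lay between -0.093 and 0.051 in these 9 comparisons.

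The farthest 95% limit of any member ranged over the 9 comparisons from 1.47-fold, for foxc1a at Prim-5 and 0.00625 mM, to 1.78-fold, for foxd5 at 6-somites and 0.625 mM. As means over the 3 stages, 0 members and 0% of all probe sets passed at each dose, and 1, 1 and 0 members had an unadjusted p under 0.05, against 5.91%, 4.56% and 5.46%. There the farthest limits were 1.30-fold, 1.31-fold and 1.27-fold. Means of the 3 doses against the 3 controls of a stage, added after the data were seen, also called 0 members. At 6-somites 0.0516% of all probe sets passed and 3 members had an unadjusted p under 0.05, against 11.2%. At 21-somites 0% passed and 0 members did, against 8.54%, and at Prim-5 0% passed and 3 members did, against 2.34%. Without the yolk-poor controls, 0 members passed in the comparisons of each dose with control, by stage or as means over the stages. Values without these arrays are not given for the means of the 3 doses. A p that misses the threshold does not show that exposed and control embryos were alike.

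The early neural plate gene foxd5 showed the smallest p at 6-somites and 0.625 mM. Its arrays lay at 3.57, 3.80 and 3.32 in controls, at 3.83, 3.63 and 4.09 at 0.00625 mM, at 4.01, 4.16 and 4.04 at 0.625 mM and at 4.24, 3.94 and 3.67 at 5 mM. Of the 9 exposed arrays, 7 lay above the highest control. The differences were 0.28 ± 0.16, 0.51 ± 0.16 and 0.38 ± 0.16 (SE) with rising dose, with adjusted p of 0.466 at 0.625 mM and 0.508 at 5 mM. Without the yolk-poor control the differences of foxd5 were 0.51 (adjusted p = 0.383) and 0.39 (adjusted p = 0.475) at the higher doses. At 21-somites 0 of the 9 exposed arrays lay outside the controls' range.

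The somite gene foxc1b was the member whose 9 exposed arrays at 6-somites all exceeded the 3 controls, which held for 1.03% of all probe sets. Controls were at 4.06, 3.88 and 3.95. Embryos at 0.00625 mM were at 4.27, 4.21 and 4.21, those at 0.625 mM at 4.15, 4.08 and 4.24, and those at 5 mM at 4.31, 4.37 and 4.22. The mean of the 3 doses differed from control by 0.27 ± 0.10 (SE, adjusted p = 0.296). At 5 mM the difference of foxc1b was 0.34 (adjusted p = 0.468), and 0.38 (adjusted p = 0.355) without the yolk-poor control. At 21-somites the sign turned, with a difference of -0.20 ± 0.12 (SE) at 5 mM, and none of the 9 exposed arrays lay above the highest control.

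The other members named at 6-somites for their small p were foxb1b (-0.40), foxd2 (0.35) and foxp1a (-0.34) at 0.00625 mM, foxj3 (-0.36) and foxa3 (0.26) at 0.625 mM, and foxd3 (0.27) at 5 mM. For foxb1b and foxd2 these values lie in the range not shown to be above background. At 21-somites the members so named were foxa3 (0.35), foxl1 (-0.18) and foxh1 (-0.25) at 0.00625 mM, and foxo3a (-0.34), foxb1a (-0.32) and foxa3 (0.25) at 0.625 mM. The values of foxl1, foxh1 and foxo3a also lie in the range not shown to be above background. At 21-somites and 5 mM the members so named were foxd3 (-0.26), foxn4 (-0.29) and foxc1b. Adjusted p for these values ran from 0.17, for foxb1b, to 0.95, for foxh1. Without the yolk-poor controls, foxp1a was at -0.21 and foxd3 at 0.18 at 6-somites. At 21-somites foxa3 was at 0.23 and 0.13 at the lower doses, and foxb1a at -0.16 at 0.625 mM. Not every difference shrank. At 21-somites foxh1 was at -0.33 at 0.00625 mM, and at 5 mM foxn4 was at -0.35 and foxc1b at -0.30, none past the threshold.

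At Prim-5 the broadly expressed foxk2b was the member whose 9 exposed arrays all exceeded the controls, which held for 0.432% of all probe sets. Controls lay at 5.96, 5.95 and 6.14, and exposed arrays from 6.16 to 6.39. The differences were 0.23, 0.31 and 0.21 with rising dose, each ± 0.11 (SE), and the mean of the 3 doses differed by 0.25 ± 0.09 (SE, adjusted p = 1). Its paralog foxk2a had differences of 0.079, 0.20 and -0.066. The related foxk1 was at 3.95, 4.07 and 3.87 in controls and at 4.26, 4.31 and 4.097 at 0.00625 mM, a difference of 0.26 ± 0.12 (SE). At 0.625 mM foxc1a (0.32) and foxa1 (0.25) followed foxk2b by p, and at 5 mM foxm1 (-0.27) and foxk1 (0.15) did. The 3 arrays of foxm1 at 5 mM, 4.57, 4.52 and 4.52, lay below controls of 4.93, 4.82 and 4.66, with an adjusted p of 1.

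As means over the stages, foxa3 had the smallest p at 0.00625 mM (0.20 ± 0.09) and 0.625 mM (0.18 ± 0.09, SE). Others named by the same rule were foxi1 (0.16) and foxb1b (-0.14) at 0.00625 mM, foxo3a (-0.18) and foxa1 (0.12) at 0.625 mM, and foxb1b (-0.13) and foxd5 (0.14) at 5 mM. Adjusted p ran from 0.834 to 0.993. Without the yolk-poor controls foxa3 was at 0.14 and 0.12, foxa1 at 0.049, foxb1b at -0.084 and -0.082, and foxd5 at 0.092.

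**Figure D4:**
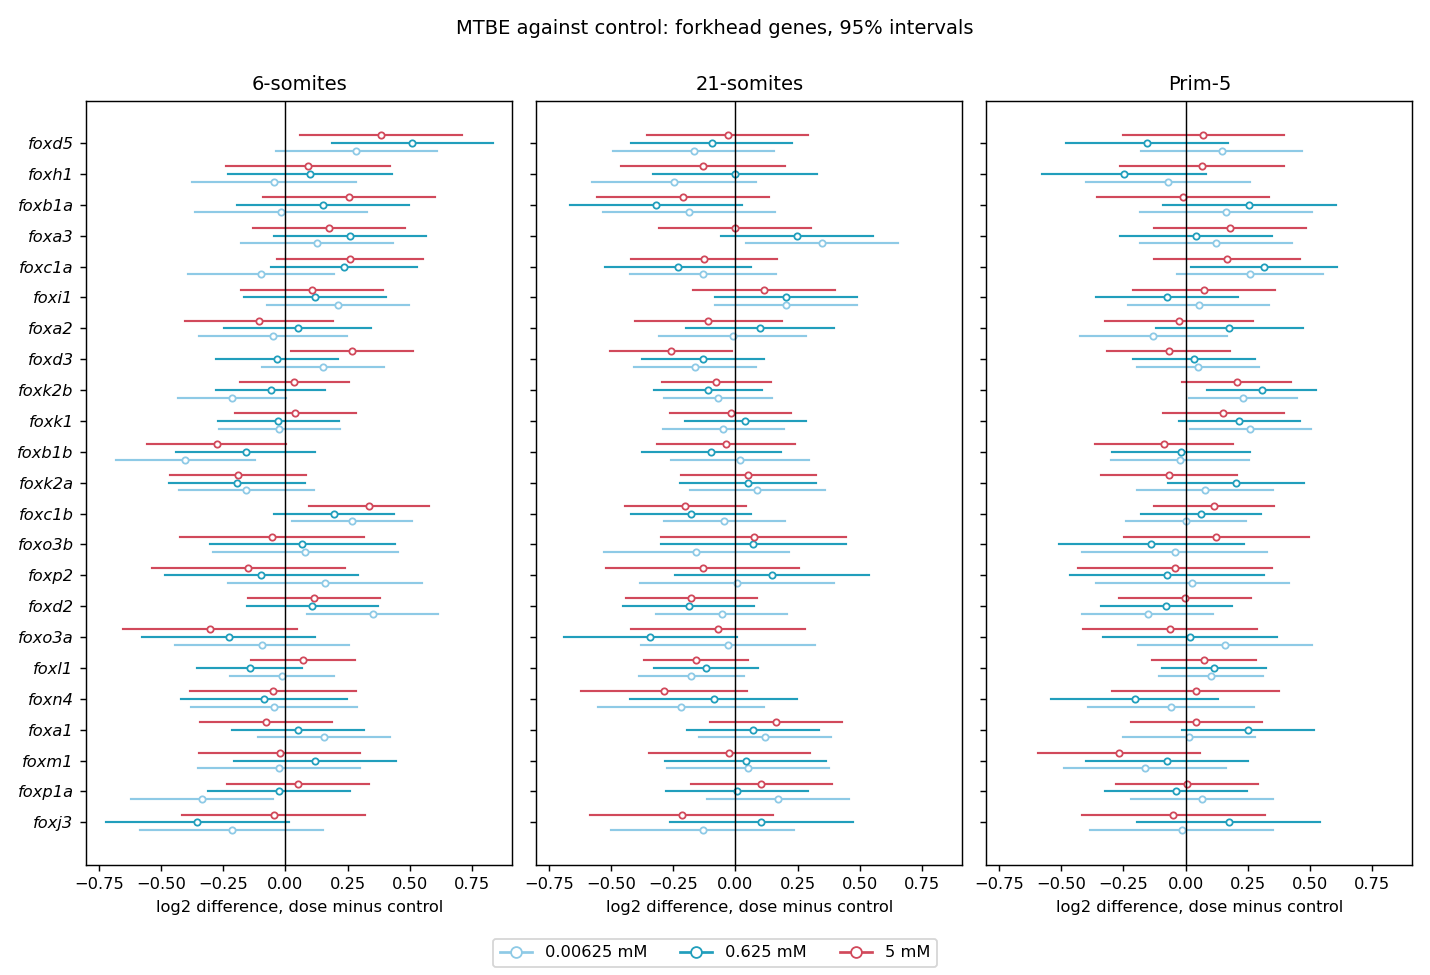
Log2 difference of each MTBE dose from the controls of its stage for the forkhead genes reported here, with 95% intervals from limma. Open points did not pass the adjusted threshold, and no point is filled. Nearly all intervals cross 0, and the points of foxd5 and foxc1b at 6-somites and of foxk2b at Prim-5 lie right of 0 at all 3 doses.

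The third comparison asked whether the effect of 5 mM depended on stage. In limma's F test 0 of 24 members and 0% of all probe sets passed, and 2 members had an unadjusted p under 0.05, against 7.66% of all probe sets. These were foxc1b (adjusted p = 0.598) and foxd3 (adjusted p = 0.602). The 5 mM differences of foxc1b were 0.34, -0.20 and 0.12 at the 3 stages. Those of foxd3 were 0.27, -0.26 and -0.068. The third by p, foxc1a, had differences of 0.26, -0.13 and 0.17 (adjusted p = 0.751).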

How the data were processed

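The authors deposited 1 table of log2 expression values, 1 column for each of the 36 arrays. Per the labels, RNA was amplified with a NuGEN kit, labelled with biotin and hybridised to Affymetrix zebrafish arrays. The background correction, normalization and software behind the log2 values were not given in the sources used here, and the unit was read from the deposited values, which ran from 0.599 to 13.2 with array medians from 3.41 to 3.62. The 115 control probe sets of the 15617 were left out. The platform annotation gave 1 symbol to 10795 probe sets, several to 135 and none to 4572, and no member was named from a probe set with several.

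One linear model of the 12 groups was fitted in limma 3.58.1 (R 4.3.3) to all 15502 probe sets. Moderated two-sided tests were adjusted by Benjamini-Hochberg over all of them in each comparison, with a threshold of 0.05. Values are the deposited ones with no further scaling. The labels call the pools of a group biological replicates, but nothing in them says that pools came from separate spawnings. The p-values measure the spread between pools, which may be partly technical and may not hold the spread between spawnings.

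Members, gene lists, tests and added comparisons were chosen with earlier results of these data known. Members named with values were those past the threshold with arrays that did not overlap in a control stage comparison, the 3 with the smallest p in a dose comparison, and both members of paralog pairs. Others were chosen after their values were seen. Counts cover all 24 members, and the values of 1 of them are not reported here. From pathway lists, up to 3 genes past the threshold with the smallest p were named. Same-numbered replicates deviated together (every correlation over 0.1) in controls from 6-somites to 21-somites, at 0.5, 0.235 and 0.196, and at 5 mM over the same interval, at 0.228, 0.237 and 0.111, but not in every comparison.

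The procedure was tested on simulated data with 50 changed probe sets of each size among 15502. In the control comparison of 6-somites and 21-somites, 26, 45, 49 and 50 of 50 were recovered at log2 differences of 0.5, 0.75, 1 and 1.5. In the real comparison 22.6% of all probe sets passed, so the adjusted threshold was harder to pass in the simulated data. The simulated arrays also held no shared deviation of same-numbered replicates. The recovered shares therefore do not carry over to the real comparison. Alternatives were other normalizations, filters and probe sets, array weights, a replicate block and leaving out each array.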

Additional observations from a re-analysis of the deposited data

How the results depend on the processing

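The numbers below are counts of members called. In controls from 6-somites to 21-somites (8 called), bright probe sets alone gave 4 and the compared arrays fitted alone 3. The arrays without the yolk-poor controls gave 2, and leaving out 1 array gave 3 to 6. The mean over doses, which is not a control value because it also holds the exposed embryos, gave 13. Bright probe sets are those at or above the median level. This filter left out foxd5, foxh1, foxa2 and foxi1 in every comparison, so its lower counts partly reflect members that could not be called. Bright probe sets alone gave 3, 5 and 7 with rising dose over this interval, and leaving out 1 array gave 3 to 6, 5 to 7 and 7 to 11. In controls from 21-somites to Prim-5 (2 called), cyclic loess, an offset of 50 and a variance trend each gave 1, the yolk-poor array's removal and the compared arrays alone gave 0, the mean over doses 10, and leaving out 1 array 0 to 2. Over this interval the compared arrays alone gave 1 at 0.00625 mM. At 0.625 mM (3 called), bright probe sets, the offset and the probe set with the lowest mean each gave 1, array weights 5, and leaving out 1 array 0 to 4. In every comparison of a dose with control, leaving out 1 array gave 0 to 0. With the replicate number as a block, the counts from 6-somites to 21-somites were 8, 8, 8 and 11 and those from 21-somites to Prim-5 were 2, 0, 3 and 0 in controls and with rising dose, all dose comparisons gave 0, and no count moved by over 1.5 times.

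Signs turned for small differences. From 6-somites to 21-somites, foxc1b was at -0.12 as a mean over doses, where its control difference was positive. In controls over this interval, foxo3a was at -0.048 with quantile normalization, -0.089 with array weights and -0.015 without the yolk-poor controls. It was at -0.084 with its dimmest probe set and at -0.11 to 0.17 with 1 array left out. From 21-somites to Prim-5, foxk2b was at 0.040 as a mean over doses, where its control difference was negative. In controls over this interval, foxk2a was at -0.017 to 0.12 with 1 array left out. At 21-somites and 5 mM, foxn4 was at 0.015 with its dimmest probe set. The change of foxk2a over foxk2b from 6-somites to 21-somites was 0.12 with the offset (adjusted p = 0.00442), and from 21-somites to Prim-5 it was -0.0046 with cyclic loess, -0.0012 with the offset and -0.029 to 0.068 with 1 array left out. The cause was not tested. No normalization moved the median of all probe sets by more than 0.08. In simulated data for 5 mM against control at 6-somites, 28 of 50 differences of 0.5 were recovered. The simulated arrays held 50 changed probe sets of each size up to 1.5, whereas 0% of all probe sets passed in the real comparison. The adjusted threshold was thus easier to pass in the simulated data, and real differences of 0.5 or more could be missed. At 0.625 mM and 6-somites the difference of foxd5, 0.51, did not pass. Of the members, 9 lay near background in at least 1 group.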
